A study of Homo sapiens with 8 samples.

Results

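The zinc finger genes whose symbols run from ZNF500 to ZNF799 were examined in RD18 cells after transfection with a pair of microRNAs. Members were all symbols of the deposited table made of ZNF and a number in that range, with at most a single letter after it, which gave 203 of 22808 symbols. Another 19 symbols with such a number were left out as antisense or intronic transcripts, readthrough symbols or pseudogene symbols. ZNF658B and ZNF788 were kept, since their symbols meet the rule, although GENCODE 29 annotates both as pseudogenes. The numbers in these symbols record the order of naming, so the range cuts across structural families.

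Treated cells received miR-449a and miR-340, given as miR-340-5p in the treatment label, and vehicle cells received the transfection reagent lipofectamine alone. Both were RD18 cells, an established line of fusion-negative rhabdomyosarcoma, a tumour of the skeletal muscle lineage without a PAX fusion gene. RNA was taken at 60 h from 4 libraries in each group. No library received a control RNA, so effects of these microRNAs and of any transfected RNA cannot be told apart, and the labels do not tie the replicates to separate cultures, so p-values measure the spread between these libraries, which may be technical.

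Most genes of this family encode proteins with tandem C2H2 fingers, each a short fold held by a zinc ion that reads a few bases of DNA. Many also carry a KRAB box near the start of the protein, which recruits the corepressor TRIM28 and with it enzymes that lay down repressive chromatin, often at transposable elements. KRAB zinc finger genes lie largely in clusters on chromosome 19 that arose by local duplication, and they are typically transcribed at low levels.

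A microRNA recognises messages mainly through its seed, bases 2 to 8. The mature sequences of the transfected pair are shown because the seed defines the word searched for in the members. The seed is in capitals, and the sequences are from RefSeq on GRCh38.p14.
miR-449a: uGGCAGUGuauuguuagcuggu
miR-340-5p: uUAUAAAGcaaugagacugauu
The DNA word that pairs with the miR-449a seed is CACTGCC, and CTTTATA pairs with the seed of miR-340-5p.

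All 203 members had a gene record in GENCODE 29 (GRCh38), and 201 had an annotated protein. A KRAB box was found in 135 of them and not in 66. Chromosome 19 held 108 members, and no other chromosome held more than 14. The median number of C2H2 fingers was 10 among the longest proteins of these 201 members.

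Library totals ran from 2842165 to 5569342 counts in treated libraries and from 2567737 to 4650213 in vehicle libraries. Of the 203 members, 169 passed the filter on low counts and were tested, and the 34 others held at most 88 counts over all libraries. None of these 34 was at 0 in every library, and 5 had 10 or fewer counts. Per exon length, the median tested member stood at 1.72 RPKM (counts per library total and per kilobase of exon) in vehicle cells, against 4.88 RPKM for all tested genes. The range ran to 37.3 RPKM in vehicle cells at ZNF593, a ribosome assembly factor.

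As a whole the family took a larger share of the RNA in treated cells. Summed over all 203 members, counts scaled to a common library total (CPM) came to 3870, 3890, 3810 and 3920 CPM in treated libraries 1 to 4, against 2550, 2520, 2660 and 2710 CPM in vehicle libraries 1 to 4. The groups did not overlap, and the ratio of their means was 1.48, or 1.35 after TMM scaling. The 3 members with the most counts did not carry this difference, since the ratio without them was 1.51. In bulk RNA, less RNA per cell and fewer cells that express a gene cannot be told apart. Mean CPM was higher in treated cells for 139 members and lower for 64.

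**Figure D1:**
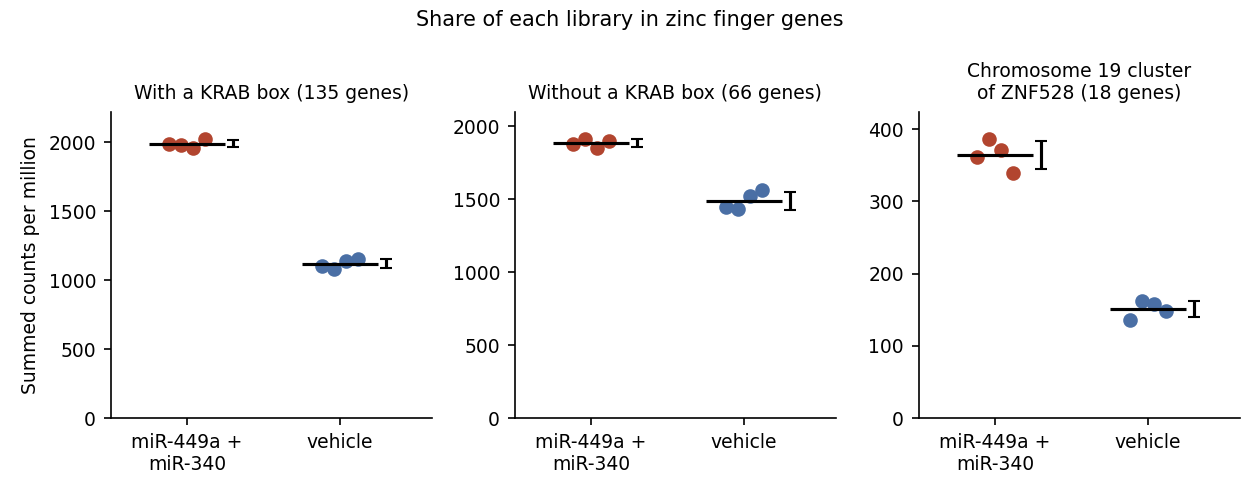
Summed CPM of members with a KRAB box, members without a KRAB box and the 18 members of the ZNF528 cluster, with 1 point per library, a line at the mean and a bar for the SD (n = 4 per group). Each panel has its own axis from 0, and in each the 4 treated libraries lie above the 4 vehicle libraries.

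Gene by gene, 79 of the 169 tested members rose and 20 fell in treated cells, and 70 did not pass (edgeR quasi-likelihood test, Benjamini-Hochberg adjusted over all 12366 tested genes). Among all tested genes 33.4% were called higher and 34% lower, against 46.7% and 11.8% of tested members. The median log2 fold change, treated over vehicle, was 0.42 in tested members, with quartiles of -0.09 and 0.98, and 0.00 in all tested genes. A change of at least 2-fold was called upward in 40 members and downward in 4, where the percentages over all genes were 12.5% and 13.1%. In 71 members every treated library lay above every vehicle library, and in 18 every treated library lay below, where all genes gave 29.2% and 29.7%.

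The filter touches this count. Of the tested members, 30 passed its CPM cutoff in all 4 treated libraries but not in all 4 vehicle libraries, and 5 did so the other way round. With every gene kept, 81 members were called higher and 21 lower of 203. With a filter on the mean over all libraries, whatever the group, 80 were called higher and 20 lower of 176. Among the 34 untested members the mean CPM was higher in treated cells for 18 and lower for 16.

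**Figure D2:**
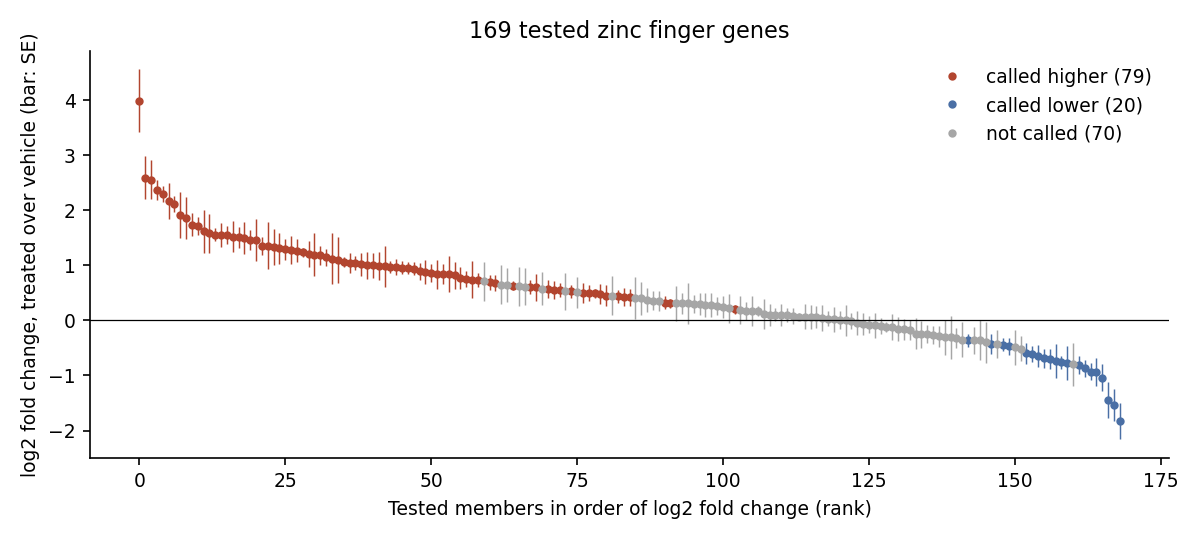
Log2 fold change (treated over vehicle) of the 169 tested members in order of size, with bars for the standard error and colours for the call. The 79 called higher fill most of the left side and reach 3.99, and the 20 called lower lie at the right end and reach -1.83. The highest value, at ZNF665, rests on few vehicle counts.

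The rises were not limited to rare messages. Of 46 members averaging over 20 CPM, 30 rose and 5 fell (median 0.52), against 2389 and 2655 of 6649 genes at that level (median -0.04). Of 88 members between 5 and 20 CPM, 34 rose and 12 fell (median 0.25), while 1297 and 1207 of 4104 genes did (median 0.03). Of 35 members under 5 CPM, 15 rose and 3 fell (median 0.64), beside 439 and 337 of 1613 genes (median 0.13).

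The rest of the numbered ZNF genes, with numbers outside this range, gave similar values. Of 226 tested, 113 rose and 21 fell (50% and 9.29%), with a median of 0.46. No test compared the genes inside and outside the range.

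Members with and without a KRAB box are described separately because the box decides which partners a protein can recruit. Of 109 tested members with a KRAB box, 63 rose and 9 fell (57.8% and 8.26%), with a median of 0.69. Of 59 without one, 16 rose and 11 fell (27.1% and 18.6%), with a median of 0.08. Both shares of the members without a box were under those of all tested genes, 33.4% higher and 34% lower. Summed counts of the KRAB members were 1990, 1980, 1960 and 2020 CPM in treated libraries, against 1100, 1080, 1140 and 1150 in vehicle libraries (ratio 1.78, or 1.61 after TMM scaling). Members without the box summed to 1880, 1910, 1850 and 1900 CPM in treated libraries and 1450, 1430, 1520 and 1560 in vehicle libraries (ratio 1.27, or 1.15 after TMM scaling). Both sums were higher in every treated library than in any vehicle library.

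The definition of the box was changed after results had been seen. A first sequence pattern marked 120 members as KRAB genes but missed known ones, ZNF528 and ZNF610 among them, and was replaced by a score over 36 residues with a cutoff of 20. By the first pattern, 55 of 98 tested KRAB members rose and 8 fell (median 0.70), and 24 of 70 others rose and 12 fell (median 0.11). With a cutoff of 40, which was the value first used for the score, the counts were 61 and 9 of 107, and 18 and 11 of 61. The scores of members lie far from the cutoff except for ZNF641 at 23.6 and ZNF597 at 39.3 above it and ZNF500 at 4.3 below it.

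Outside the number range, 75 of 145 tested ZNF genes with a KRAB box rose and 8 fell (51.7% and 5.52%, median 0.56). Of 81 without one, 38 rose and 13 fell (46.9% and 16%, median 0.32). The difference between genes with and without the box was described only and was not tested.

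Chromosome 19 and the KRAB box overlap as properties. Of 85 tested members on chromosome 19, 47 rose and 5 fell (55.3% and 5.88%, median 0.55). Of 84 elsewhere, 32 rose and 15 fell (38.1% and 17.9%, median 0.19). All tested genes were 33.4% higher and 34% lower. Genes of chromosome 19 that are not named ZNF were evenly split, with 217 higher and 216 lower of 631 (median 0.00). KRAB members rose in 44 of 73 cases on chromosome 19 (4 fell, median 0.82) and in 19 of 36 cases elsewhere (5 fell, median 0.59). Members without a KRAB box rose in 3 of 11 cases on chromosome 19 (27.3%, 1 fell) and in 13 of 48 elsewhere (27.1%, 10 fell).

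By the number of C2H2 fingers, 7 of 24 tested members with 0 to 4 fingers rose and 7 fell (median 0.04). That was 29.2% in each direction, near the 33.4% higher and 34% lower of all tested genes. With 5 to 9 fingers, 28 of 54 rose and 4 fell (51.9% and 7.41%, median 0.49). With 10 or more, 44 of 90 rose and 9 fell (48.9% and 10%, median 0.47).

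**Figure D3:**
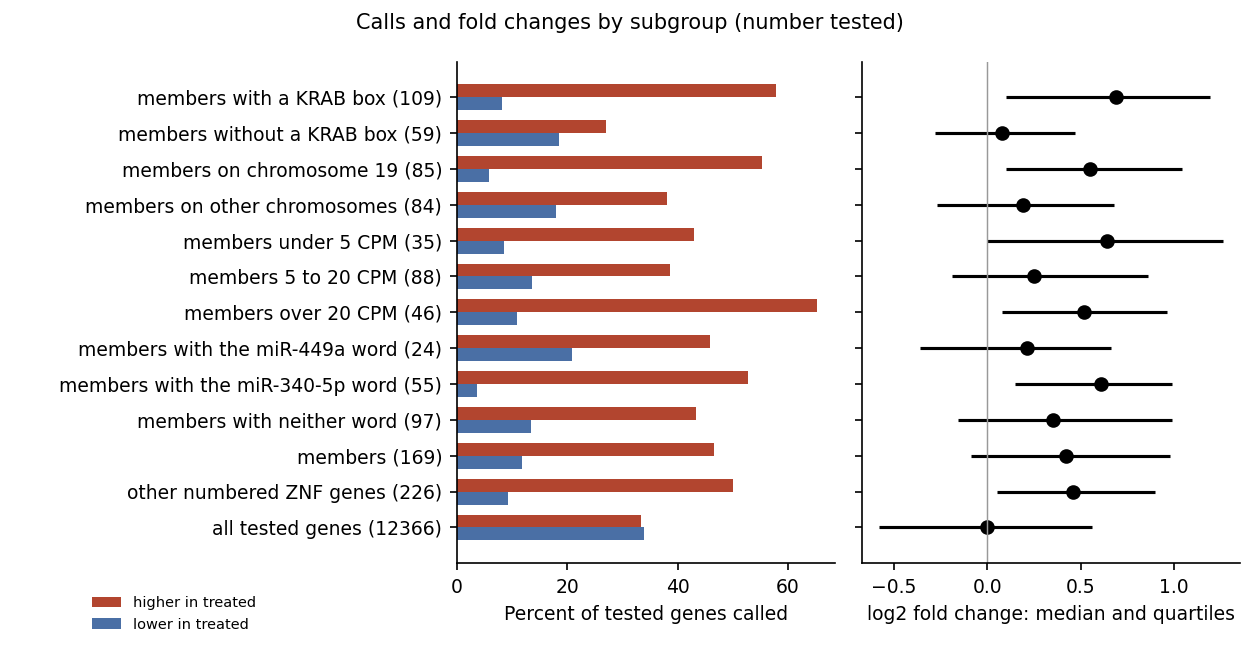
Percent of tested genes called higher or lower in treated cells (left) and median log2 fold change with quartiles, treated over vehicle (right), for subgroups of the members and, in the last 2 rows, for other numbered ZNF genes and all tested genes. Bars for members with a KRAB box reach 57.8% higher and 8.26% lower, and those for all tested genes 33.4% and 34%.

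The members of chromosome 19 were then grouped into clusters wherever neighbouring members lay within 1 Mb, a step added after several of the largest rises were seen to lie close together. The cluster from ZNF577 to ZNF761 (chromosome 19, 51804816 to 53458261, GRCh38) held 18 members, all tested and all with a KRAB box. Of these, 13 rose, 1 fell and 4 did not pass, with log2 fold changes from -0.69 to 3.99 and a median of 1.1. The highest value, at ZNF665, rests on few vehicle counts. Their summed counts were 362, 386, 371 and 340 CPM in treated libraries, against 136, 162, 158 and 148 in vehicle libraries (ratio 2.42, or 2.20 after TMM scaling). Since the cluster was noticed for its rises, these values are a description.

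Along this cluster the largest fold changes followed each other. ZNF616 (log2 fold change 1.46), ZNF766 (0.96), ZNF610 (2.56), ZNF528 (2.30), ZNF578 (2.17), ZNF701 (1.72), ZNF611 (1.55), ZNF600 (1.74), ZNF665 (3.99), ZNF677 (0.97) and ZNF525 (0.88) rose one after the other in chromosome order. ZNF649, near the cluster's start, fell to 12.1 ± 1.76 CPM in treated cells, against 20.2 ± 1.83 CPM in vehicle cells (SD, n = 4 each). Of 16 other numbered ZNF genes tested within these bounds, 15 rose and none fell, and of 4 genes there that are not zinc finger genes 1 rose and 1 fell.

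The other clusters with at least 5 tested members held smaller changes. From 8806170 to 9675086, 4 of 5 rose and none fell (median 0.89), and from 11483427 to 12633840 the count was also 4 of 5 (median 0.98). From 36182060 to 37817300, 8 of 13 rose and none fell (median 0.53). From 19785839 to 23945159, 5 of 10 rose and 2 fell (median 0.46). From 55476332 to 58418327, 9 of 22 rose and 1 fell (median 0.31). Over all tested genes 33.4% were called higher and 34% lower. Other numbered ZNF genes within these bounds rose in 2 of 4, 3 of 5, 5 of 9, 6 of 12 and 15 of 21 cases, in the order given. Of these, 1 fell in the stretch from 36182060 and 1 in that from 19785839. Clustered zinc finger genes are close copies of each other, so reads shared between them may have been dropped or split by the authors' counting, and single values are uncertain to that degree.

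**Figure D4:**
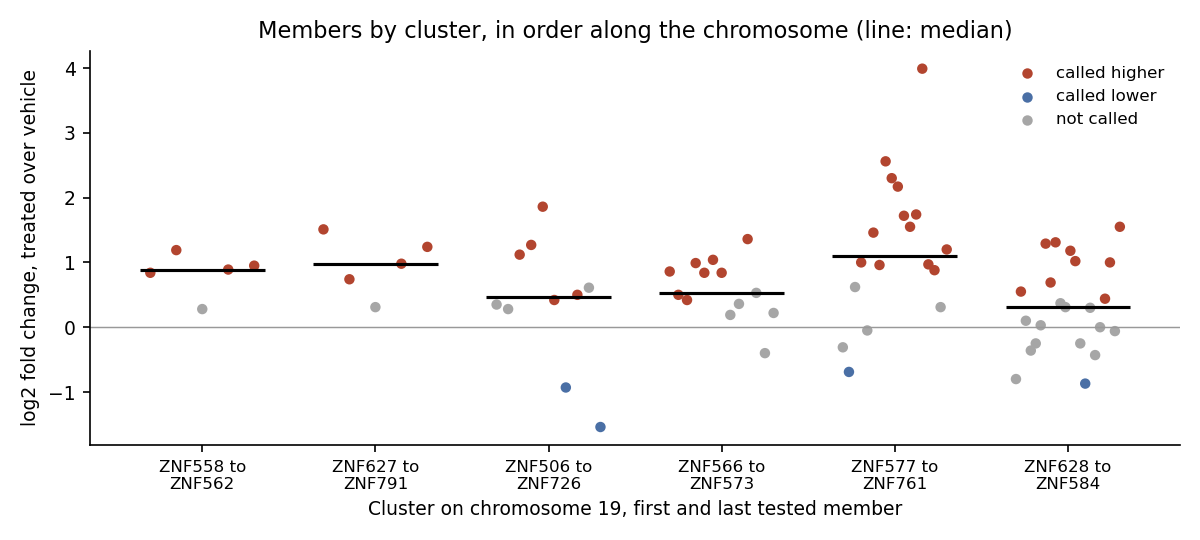
Log2 fold change (treated over vehicle) of the tested members in the 6 chromosome 19 clusters with at least 5 tested members, in order along the chromosome within each cluster, with a line at the median. The cluster from ZNF577 to ZNF761 has the highest median, 1.1, and 13 of its 18 members were called higher.

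Individual members are given with their CPM after TMM scaling in libraries 1 to 4 of each group. Among called members averaging at least 5 CPM and with no overlap between the groups, 8 largest rises and 8 largest falls were taken. Separation of the groups in these genes was thus set by the choice. Of the 8 rises, 5 belong to the cluster around ZNF528.

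ZNF528, a KRAB gene with 15 fingers (chromosome 19, 52397849 to 52418412, plus strand), measured 51.7, 52.0, 44.4 and 57.9 CPM in treated libraries, against 7.53, 14.5, 9.21 and 9.80 CPM in vehicle libraries. The lowest treated library was far above the highest vehicle library, and the log2 fold change was 2.30 (SE 0.15, edgeR adjusted p = 5.03e-21). An antisense gene, ZNF528-AS1, is listed separately in the table, and whether reads were counted by strand is not given in the sources used here.

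ZNF610, its neighbour with 8 fingers (52336245 to 52367778), measured 9.05, 9.89, 11.4 and 7.72 CPM in treated libraries and 3.35, 0.777, 0.449 and 2.51 CPM in vehicle libraries. Vehicle levels rested on few counts, and the groups did not overlap (log2 fold change 2.56, SE 0.35, adjusted p = 4.13e-09). ZNF578, on the other side of ZNF528, gave 7.99, 6.31, 12.1 and 9.33 CPM in treated libraries, against 0.837, 2.59, 2.25 and 1.51 CPM in vehicle libraries (log2 fold change 2.17, SE 0.33, adjusted p = 6.08e-08). Neither ZNF610 nor ZNF578 reached the filter's cutoff of 2.43 CPM in every vehicle library, so both passed through their treated libraries. Their p-values and lack of overlap are thus a description.

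ZNF701 and ZNF600 had the same shape at higher levels. ZNF701 averaged 32.0 ± 4.14 CPM in treated cells and 9.87 ± 2.12 CPM in vehicle cells (log2 fold change 1.72, SE 0.17, adjusted p = 6.52e-14). ZNF600 averaged 18.5 ± 3.74 CPM in treated cells and 5.74 ± 1.78 CPM in vehicle cells (log2 fold change 1.74, SE 0.22, adjusted p = 2.21e-10; SD, n = 4 each). In neither gene did the groups overlap, which the choice required.

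The 3 remaining rises lie on other chromosomes. ZNF697, which has 11 fingers and no KRAB box (chromosome 1, 119619422 to 119647773, minus strand), measured 31.2, 33.3, 35.1 and 34.4 CPM in treated libraries, against 7.11, 6.99, 4.27 and 7.79 CPM in vehicle libraries. Its treated libraries were close together and all far above vehicle (log2 fold change 2.37, SE 0.17, adjusted p = 1.55e-18). Its mouse counterpart has been described in the remodelling of skeletal muscle.

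ZNF720, a KRAB gene whose longest annotated protein held 0 matches to the finger pattern (chromosome 16, 31713229 to 31794869, plus strand), gave 42.3, 40.4, 42.3 and 40.9 CPM in treated libraries and 10.5, 9.58, 10.8 and 7.54 CPM in vehicle libraries. The spread within each group was small beside the difference (log2 fold change 2.12, SE 0.15, adjusted p = 2.6e-19). ZNF703, a corepressor of the NET family known as a breast cancer oncogene, gave 79.7, 84.3, 79.9 and 65.0 CPM in treated libraries, against 17.2, 26.9, 28.7 and 29.9 CPM in vehicle libraries (log2 fold change 1.56, SE 0.12, adjusted p = 4.97e-18).

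**Figure D5:**
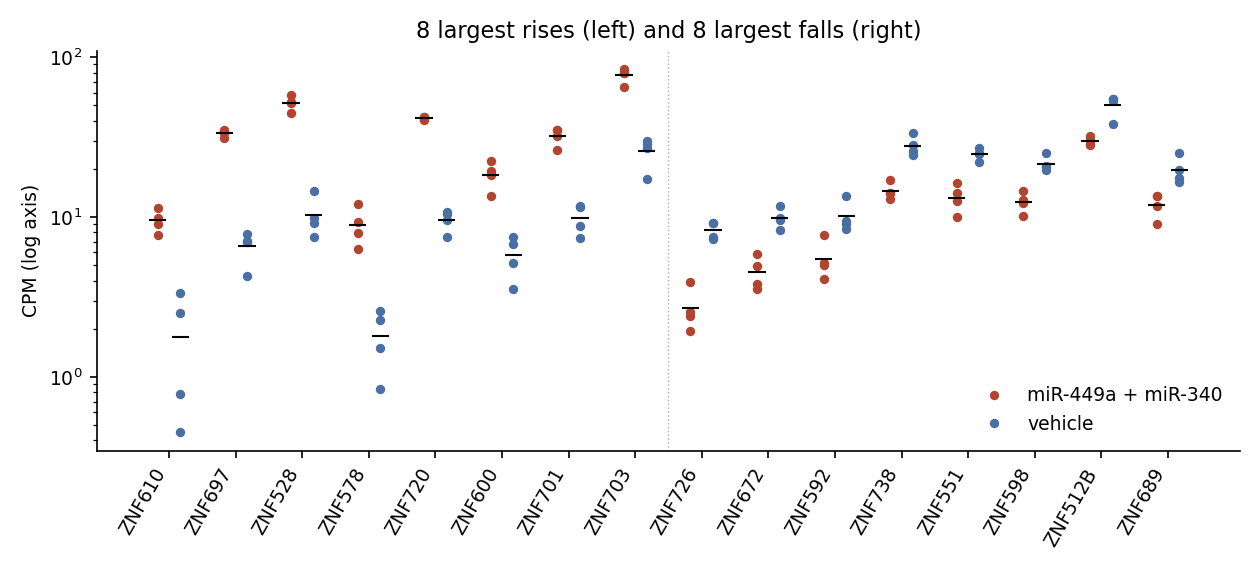
CPM after TMM scaling on a log axis for the 8 largest rises and the 8 largest falls, with 1 point per library and a line at the mean of 4 libraries, treated left of vehicle for each gene. The groups do not overlap in any of the 16 genes, which the choice of these genes required.

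Below the level of 5 CPM the change in ZNF665 was larger, and this gene was chosen after its values were seen. ZNF665 had 22, 20, 19 and 20 counts in treated libraries, against 0, 1, 0 and 3 counts in vehicle libraries. All treated libraries exceeded all vehicle libraries (log2 fold change 3.99, SE 0.57, adjusted p = 1.37e-08), but with so few vehicle counts the size of the fold change is poorly fixed. Its vehicle libraries stood at 0 to 0.754 CPM, under the filter's cutoff of 2.43 CPM. ZNF665 was thus tested only because of its treated libraries, and its p-value and lack of overlap are a description.

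The falls were smaller than the rises. ZNF726, a KRAB gene with 17 fingers (chromosome 19, 23914876 to 23945159), measured 3.91, 2.56, 2.41 and 1.93 CPM in treated libraries, against 9.20, 7.51, 9.21 and 7.28 CPM in vehicle libraries. Every treated library was below every vehicle library (log2 fold change -1.54, SE 0.29, adjusted p = 6.85e-06). ZNF726 did not reach the filter's cutoff of 2.43 CPM in every treated library, so it passed through its vehicle libraries. Its p-value and lack of overlap are thus a description. ZNF738, in the same stretch of chromosome 19, averaged 14.6 ± 1.74 CPM in treated cells and 27.9 ± 3.98 CPM in vehicle cells (log2 fold change -0.93, SE 0.15, adjusted p = 2.69e-07). Members under the 5 CPM level, also picked after their values were seen, were ZNF519 and ZNF695. Like ZNF726, neither reached the filter's cutoff in every treated library. ZNF519 averaged 1.99 ± 0.55 CPM in treated cells, against 7.09 ± 1.33 CPM in vehicle cells (log2 fold change -1.83), and ZNF695 2.49 ± 0.927 CPM in treated cells, against 6.76 ± 1.85 CPM in vehicle cells (log2 fold change -1.45).

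The falls without a KRAB box included ZNF598 and ZNF512B. ZNF598, the ubiquitin ligase that marks collided ribosomes, gave 12.2, 10.1, 12.7 and 14.5 CPM in treated libraries and 25.1, 20.5, 20.9 and 19.6 CPM in vehicle libraries. The groups were well apart (log2 fold change -0.81, SE 0.17, adjusted p = 2.89e-05). ZNF512B gave 32.0, 30.4, 28.6 and 28.3 CPM in treated libraries, against 38.1, 53.3, 54.3 and 54.5 CPM in vehicle libraries. Vehicle library 1 stood below the other vehicle libraries but above all treated ones (log2 fold change -0.76, SE 0.12, adjusted p = 6.56e-08).

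ZNF672 averaged 4.53 ± 1.08 CPM in treated cells and 9.87 ± 1.41 CPM in vehicle cells (log2 fold change -1.04, SE 0.25, adjusted p = 0.000252). ZNF592 averaged 5.49 ± 1.56 CPM in treated cells and 10.1 ± 2.30 CPM in vehicle cells (log2 fold change -0.94, SE 0.25, adjusted p = 0.000801). The KRAB genes ZNF551 and ZNF689 completed the 8 falls, with log2 fold changes of -0.87 (SE 0.16, adjusted p = 3.32e-06) and -0.70 (SE 0.18, adjusted p = 0.000401).

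The members with the most counts changed little or moderately. ZNF638, which encodes a nuclear RNA-binding protein, gave 205, 186, 202 and 208 CPM in treated libraries and 205, 195, 191 and 171 CPM in vehicle libraries. These overlapped and the gene did not pass (log2 fold change 0.07, SE 0.07, adjusted p = 0.327). ZNF609, known also as the host of a circular RNA of myoblasts, gave 144, 148, 191 and 152 CPM in treated libraries, against 102, 93.2, 103 and 107 CPM in vehicle libraries (log2 fold change 0.63, SE 0.08, adjusted p = 4.1e-10). The counts are for the gene symbol and say nothing of the circle.

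ZNF644, a partner of the histone methyltransferases EHMT1 and EHMT2, averaged 122 ± 14.6 CPM in treated cells and 105 ± 11.3 CPM in vehicle cells. The groups overlapped, and its call (log2 fold change 0.20, SE 0.08, adjusted p = 0.033) was lost with DESeq2, with limma-voom, once fold changes were corrected for GC content and length, and when vehicle replicate 2 (adjusted p = 0.171), vehicle replicate 3 (0.12), treated replicate 3 (0.0574) or treated replicate 4 (0.169) was left out.

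Members with known roles in transcription and ribosome assembly were read whatever their values. ZNF593 averaged 41.0 ± 5.21 CPM in treated cells and 28.7 ± 2.93 CPM in vehicle cells (log2 fold change 0.53, SE 0.12, adjusted p = 0.000123). ZNF622, like ZNF593 a factor of the large ribosomal subunit, averaged 17 ± 2.29 CPM in treated cells and 14.1 ± 2.11 CPM in vehicle cells and did not pass (log2 fold change 0.26, adjusted p = 0.161), although it did when only library size was used for scaling (0.0343) and once corrected for GC content and length (0.0278).

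ZNF592, ZNF687 and ZNF532 encode subunits of 1 complex with the reader ZMYND8. ZNF592 fell, as given above. ZNF687 averaged 12.7 ± 2.15 CPM in treated cells, against 14.4 ± 2.09 CPM in vehicle cells (log2 fold change -0.18, adjusted p = 0.392). ZNF532 averaged 11 ± 0.464 CPM in treated cells, against 12.1 ± 2.21 CPM in vehicle cells (log2 fold change -0.16, adjusted p = 0.464). Neither of these passed.

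ZNF521, an inhibitor of EBF1 in blood and fat progenitors, averaged 30.0 ± 0.722 CPM in treated cells and 38.8 ± 5.28 CPM in vehicle cells (log2 fold change -0.36, SE 0.12, adjusted p = 0.00711). Scaling by library size alone removed that call (adjusted p = 0.103). ZNF516, a factor of brown fat in mouse, averaged 16.6 ± 3.31 CPM in treated cells and 11.9 ± 3.11 CPM in vehicle cells (log2 fold change 0.45, SE 0.19, adjusted p = 0.0297). Its groups overlapped, and the call was lost with DESeq2, once corrected for GC content and length, and when vehicle replicate 1 (adjusted p = 0.131), vehicle replicate 2 (0.0568), treated replicate 1 (0.122) or treated replicate 4 (0.0778) was left out.

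ZNF518A, ZNF568 and ZNF746 rose. ZNF518A averaged 94.1 ± 7.13 CPM in treated cells and 67.8 ± 3.84 CPM in vehicle cells (log2 fold change 0.49). ZNF568, whose mouse counterpart silences a placental Igf2 transcript, averaged 20.3 ± 5.44 CPM in treated cells and 11.4 ± 1.33 CPM in vehicle cells (log2 fold change 0.84). ZNF746, the Parkin substrate PARIS, averaged 22.2 ± 3.37 CPM in treated cells and 15.3 ± 2.63 CPM in vehicle cells (log2 fold change 0.57, adjusted p = 0.00157). ZNF503, the paralog of ZNF703, and ZNF711, an X-linked factor, did not pass, with log2 fold changes of 0.17 (adjusted p = 0.341) and -0.10 (adjusted p = 0.576).

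The words that pair with the transfected seeds were counted in the longest annotated 3′ UTR, which 198 members had. That UTR can come from another transcript than the longest coding part, so a word can lie in both. Both words of ZNF573 and the miR-340-5p word of ZNF615 do so. Of 24 tested members with the miR-449a word, 11 rose and 5 fell (median 0.21), against 608 and 877 of 2165 genes with it (median -0.12). Of 55 with the miR-340-5p word, 29 rose and 2 fell (median 0.61), against 762 and 736 of 2175 genes (median 0.03). Of 97 members with neither word, 42 rose and 13 fell (median 0.35), while 2560 and 2260 of 7037 genes did (median 0.05). A word is a match of letters and not a shown site.

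The 5 members that carry the miR-449a word and fell are shown with 30 bases around it, transcript strand, GRCh38, with the word in capitals.
ZNF672, chr1:248849373-248849402: acaaagccaggCACTGCCaagtggaacatg
ZNF551, chr19:57688467-57688496: ctgatttatgtCACTGCCaatttctgaggc
ZNF783, chr7:149284404-149284433: ttgggaagaggCACTGCCcttctgtgctgt
ZNF502, chr3:44722818-44722847: tttttcttaaaCACTGCCtgtcagtgtgaa
ZNF512B, chr20:63959342-63959371: ccctgtctgacCACTGCCatgctgacctga
ZNF512B, chr20:63958229-63958258: tactgactgggCACTGCCtctgcccccagc
ZNF672, ZNF551 and ZNF512B belong to the 8 largest falls. ZNF783 and ZNF502 were called lower with log2 fold changes of -0.78 (adjusted p = 0.0236) and -0.74 (adjusted p = 0.0294), with overlap between the groups. Neither gene reached the filter's cutoff of 2.43 CPM in every treated library, though both did in every vehicle library, so their p-values are a description. Both calls were lost with DESeq2, with scaling by library size alone, and when vehicle replicate 2 or vehicle replicate 4 was left out, which leaves 3 members with this word called lower. ZNF641 (log2 fold change 1.5) and ZNF585A (1.04) carry the word as well and rose. ZNF641 did not reach the filter's cutoff in every vehicle library.

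The miR-340-5p word is shown for the large risers ZNF720 and ZNF610 and for ZNF512 and ZNF608, the members that carry it and fell.
ZNF720, chr16:31756406-31756435: tactggcatacCTTTATAgtacaatgaagt
ZNF720, chr16:31756521-31756550: ttataaatataCTTTATAtcaattttccag
ZNF610, chr19:52367489-52367518: tcaggaggataCTTTATAgtagagaataat
ZNF512, chr2:27622494-27622523: agttctctcctCTTTATAtcctgagacttt
ZNF608, chr5:124637832-124637861: atggggaagcgCTTTATAcagacatcagtt
ZNF512 averaged 15.6 ± 0.868 CPM in treated cells and 21.7 ± 2.59 CPM in vehicle cells (log2 fold change -0.47, adjusted p = 0.00626). ZNF608 averaged 11.1 ± 2.61 CPM in treated cells and 17.2 ± 4.21 CPM in vehicle cells (log2 fold change -0.60, adjusted p = 0.00379), with overlapping groups.

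The coding parts were searched after the 3′ UTR counts were known, and the words of ZNF573 and ZNF615 named above enter both counts. Of 16 tested members with the miR-449a word in the longest coding part, none rose and 5 fell in the edgeR test, with log2 fold changes from -1.04 to 0.24 and a median of -0.13. All genes with the word there gave 621 higher and 813 lower of 2134 (median -0.09). The share called lower was 31.2% of the 16 members, 38.1% of all genes with the word there and 34% of all tested genes. The share called higher was 29.1% of all genes with the word there and 33.4% of all tested genes. The 5 were ZNF672, ZNF592, ZNF512B, ZNF689 and ZNF639, of which 4 belong to the 8 largest falls. ZNF639 averaged 16.6 ± 2.73 CPM in treated cells and 25.5 ± 1.96 CPM in vehicle cells (log2 fold change -0.61, adjusted p = 0.000278). Of the 16, 11 lack a KRAB box, and of these none rose and 4 fell (36.4% lower, median -0.16). Among the 48 tested members without a KRAB box and without the word there, 16 rose and 7 fell (33.3% and 14.6%, median 0.17).

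The coding words of 4 of these members are shown in the same way, with the codon in which the word begins. The word of ZNF672 begins in codon 433, that of ZNF592 in codon 822, that of ZNF512B in codon 544 and that of ZNF689 in codon 234.
ZNF672, chr1:248848562-248848591: tccgcagtgggCACTGCCctcgtctttgag
ZNF592, chr15:84797922-84797951: tccaggagcgaCACTGCCaggttttccaca
ZNF512B, chr20:63963668-63963697: tcaagtgccagCACTGCCggaagcagttca
ZNF689, chr16:30605049-30605078: agaagccctatCACTGCCctgactgtggtc
Members with the word in the coding part that did not pass include ZNF646 (log2 fold change 0.24), ZNF573 (0.22) and ZNF526 (0.10). Of 14 members with the miR-340-5p word in the coding part, 8 rose and 1 fell (median 0.55), against 239 and 214 of 662 genes with it there (median 0.07).

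Promoters, taken as 250 bases before to 50 after the RefSeq start, were available for 166 members and were searched on both strands, after the changes of the members had been seen, for letters bound by interferon-regulated and cell cycle factors. The interferon-type letters, 2 copies of GAAA with any 2 bases between them, were found in 2 of 166 members (1.2%), against 3.65% of 27305 promoters. The E2F-type letters TTTCCCGC or TTTGGCGC were found in 9 members (5.42%), against 2.31% of all promoters. Of the 9, 4 belong to the 68 members called higher that had a promoter (5.88%), 1 to the 15 called lower (6.67%) and 1 to the 57 not called (1.75%). The interferon-type letters were found in 1 of the 68 called higher and in none of those called lower or not called.

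Among the partners of the KRAB box, falls outnumbered rises. Of 33 tested genes of a list of KRAB corepressors and silencing enzymes, 20 fell, 3 rose and 10 were not called (median -0.25). These were 60.6% lower and 9.09% higher, against 34% lower and 33.4% higher of all tested genes. Scaling by library size alone gave 6 higher and 14 lower (18.2% and 42.4%), against 39.5% and 27.9% of all tested genes. TRIM28, the corepressor that binds the KRAB box, measured 65.0, 71.1, 64.4 and 65.0 CPM in treated libraries, against 164, 169, 173 and 163 CPM in vehicle libraries. The groups were far apart (log2 fold change -1.33, SE 0.08, adjusted p = 3.99e-23). SETDB1, the H3K9 methyltransferase recruited by TRIM28, averaged 59.3 ± 6.40 CPM in treated cells and 34.1 ± 4.88 CPM in vehicle cells (log2 fold change 0.82, SE 0.11, adjusted p = 2.63e-09).

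CBX5, which encodes HP1 alpha, averaged 274 ± 15.7 CPM in treated cells and 700 ± 57.9 CPM in vehicle cells (log2 fold change -1.35). UHRF1 fell by 2.50, DNMT1 by 1.19 and RBBP7 by 1.41 on the log2 scale. UHRF1 and DNMT1 maintain DNA methylation at replication and are known to be expressed in dividing cells. DNMT3A and EHMT1 were the other members of the list that rose, with log2 fold changes of 0.61 and 0.28.

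Several other gene groups moved beside the family. All 10 genes of a dividing cell list fell, with summed CPM of 162 to 284 in treated libraries and 3650 to 4080 in vehicle libraries. All 10 of an interferon list rose, with sums of 3650 to 4060 CPM in treated libraries and 420 to 431 CPM in vehicle libraries. Of 7 muscle markers 5 were tested and all 5 fell, with sums of 855 to 892 CPM in treated libraries and 1220 to 1270 CPM in vehicle libraries. MYOD1, which defines the lineage, stood at 108 ± 3.72 CPM in treated cells and 204 ± 21.7 CPM in vehicle cells, so the defining marker of the labelled lineage was present. Leukocyte markers summed to 1.93 to 2.73 CPM in treated libraries and 1.26 to 2.76 CPM in vehicle libraries, and endothelial markers to at most 1.29 CPM. Epithelial markers summed to 69.2 to 80.9 CPM in treated libraries and 38.3 to 49 CPM in vehicle libraries, nearly all from KRT18, and the fibroblast marker LUM averaged 0.3 ± 0.354 CPM in treated cells and 7.55 ± 1.98 CPM in vehicle cells. The part of any of these in the shift of the zinc finger genes was not tested.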

How the data were processed

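Bulk RNA of RD18 cells was sequenced with a stranded mRNA kit on a HiSeq4000, per the labels' protocols. The authors deposited raw read counts by gene symbol, as whole numbers with a column for each library. HTSeq 0.5.3p3, TopHat2 2.0.13, SAMtools 0.1.19.24 and DESeq2 are listed in the submitters' processing notes, with GRCh38 as the build. Which annotation was counted, and whether by strand, is not given in the sources used here.

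Counts were tested with edgeR 4.0.16 in R 4.3.3 (filterByExpr with a minimum count of 10, TMM scaling, robust quasi-likelihood fit, group as the only term, two-sided, adjusted p under 0.05 over 12366 genes). The standard error is the size of the log2 fold change over the square root of F. CPM of single genes use TMM-scaled totals, and summed shares use plain totals unless stated. No replicate pair agreed within sampling noise.

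Positions, proteins, fingers and UTRs came from GENCODE 29, by symbol for 17606 genes and by another symbol for 512. Fingers were matches to a C2H2 spacing pattern. The KRAB score was built from the pattern's own hits, and its cutoff was set after the results had been seen.

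The members and lists were chosen with earlier results of these data known, and so are descriptions. Clusters, coding words and the promoter search were added after values were seen. Named were the 8 largest rises and falls among called members of at least 5 CPM with no overlap, the 3 with the most counts, 16 of prior interest, and of the corepressor list TRIM28, SETDB1 and the 4 with the smallest adjusted p. Alternatives were other scalings, filters, thresholds and tools (DESeq2 1.42.0, limma 3.58.1), a replicate block, leaving out each library, removing mitochondrial genes, and a GC content and length correction; a filter on the mean of 2 CPM and other KRAB definitions were added after seeing the data. The fit was tested on simulated data.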

Additional observations from a re-analysis of the deposited data

Results flagged for a closer look

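Of 74 groups of 4 libraries examined for the named genes and the member sum, 5 held a library far from the others, and chance marks about 1 group in 20. ZNF512B stood at 38.1 CPM in vehicle library 1 and at 53.3 to 54.5 CPM in the other vehicle libraries. ZNF609 stood at 191 CPM in treated library 3, with 144 to 152 CPM in the other treated libraries. ZNF521 was at 29 CPM in treated library 4 and at 30.3 to 30.5 CPM in the others, a gap of small size. Treated library 2 was highest for TRIM28, at 71.1 CPM against 64.4 to 65.0 CPM in the other treated libraries, and for UHRF1, at 19.4 CPM against 14.0 to 14.8 CPM.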

How the results depend on the processing

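No called gene among those named, and no median of the members, reversed its direction under any alternative run. Uncalled genes did: ZNF711 was at 0.04 with library size only (adjusted p = 0.817), in place of -0.10, and ZNF638 at -0.08 after correction for GC content and length (adjusted p = 0.301), in place of 0.07. Members called higher ranged from 64 to 94 and called lower from 15 to 23 over settings that kept all libraries. With library size as the only scaling the median of all genes was 0.14 in place of 0.00 and the median of members 0.55, with 94 members higher and 15 lower (55.6% and 8.88%), beside 4890 and 3453 of all genes (39.5% and 27.9%). All genes were 4185 higher and 4133 lower with DESeq2 size factors and 4381 and 3922 with upper-quartile scaling, so their balance depends on the scaling. Upper-quartile scaling gave a median of 0.47, a filter of 1 CPM in 4 libraries 0.35 and no filter 0.38. Leaving out 1 library gave medians from 0.36 to 0.45, with 72 to 81 members higher and 19 to 22 lower. Corepressor genes called higher were 5 with upper-quartile scaling and 6 with library size only. Members without a KRAB box called lower were 7 with library size only and 7 at 1.5-fold, where 8 were called higher, and at 1.5-fold other ZNF genes called lower were 12 and corepressor genes called lower were 12. Members with the miR-449a word called lower were 3 in place of 5 with DESeq2, library size only, adjusted p under 0.01, or without vehicle replicate 2 or 4, and those with the miR-340-5p word 1 in place of 2 with library size only and at 1.5-fold. The cause of these shifts was not tested.

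Whether replicate numbers pair the samples is not given by the labels. Deviations of same-numbered libraries correlated at 0.0135 to 0.0555. With the replicate block 77 members were called higher and 21 lower, with a median of 0.41, and no call of a named gene changed. Every treated library and 3 of 4 vehicle libraries correlated best with their own number, a hint from the data and not from the design.

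Depth limits members under about 5 CPM, which hold few counts per library.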
